A study of Homo sapiens with 42 samples.

Results

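Extra HIF-2α was placed on top of the endogenous protein in 786-O cells, and its effect on RNA was read in batch 2 by comparing 3 libraries of the HIF-2α line with 3 libraries of WT cells, together 6 of the 42 libraries of the series, chosen by the cell line and batch in their labels. 786-O is a clear cell renal carcinoma line that lacks functional VHL, so endogenous HIF-2α is not degraded at normal oxygen, and its HIF-1α is truncated and not functional. WT cells carried no transgene. The HIF-2α line was derived from these WT cells by PiggyBac integration of a transgene in which the L30 promoter drives V5-tagged, Halo-tagged HIF-2α beside a puromycin resistance gene, followed by selection in puromycin. The methods describe a selected stable line and no cloning step for it, and state that expression from L30 varied between cells. Batch 2 held no line with a mutant HIF-2α transgene, so the comparison with WT alone does not separate HIF-2α activity from carriage of a transgene or growth in puromycin. Batch 1 held 3 WT and 3 HIF-2α libraries and 3 libraries each of lines carrying HIF-2α R27E, a change reported to impair DNA binding, and HIF-2αDM, changes reported to abolish pairing with the partner subunit (1 label of that line names HIF-1α, but its EPAS1 and HIF1A levels were those of a HIF-2α line), and it was used as a separate measurement of the same comparison. A batch 2 line with extra HIF-1α (3 libraries), made with the same kind of transgene and selection, is given beside some genes. Libraries were compared in bulk, so fewer cells of a kind and less RNA per cell cannot be told apart.

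The 3 WT libraries held 90509069, 109642159 and 88530985 counted reads and the 3 HIF-2α libraries 93760794, 78706203 and 78087880. Levels are given as normalized counts, the reads of a gene scaled to a library of common size by TMM factors that ran from 0.963 to 1.03 here. Euclidean distances on log2 normalized counts between libraries of the same line were 107 to 124 and those between the lines 167 to 172. As for the labelled kidney cells, 14 kidney lineage genes summed to between 36792 and 39481 in WT and between 30054 and 32284 in the HIF-2α line, but HNF4A, LRP2, SLC22A6 and UMOD, which mark differentiated tubule, were at 0 in all 3 WT libraries. Of 17 markers of other cell types, the sums were 208 to 294 in WT and 288 to 348 in the HIF-2α line, and CD3E was at 0 in all 6 libraries.

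HIF-2α, encoded by EPAS1, is the oxygen-labile subunit of a transcription factor whose stable partner is ARNT (HIF-1β). VHL marks hydroxylated HIF-α for destruction, and the hydroxylation is carried out by the EGLN enzymes. The HIF-α/ARNT dimer binds hypoxia response elements, whose core is most often written as ACGTG, and HIF-2α is regarded as the driver of growth in VHL-deficient renal carcinoma, whereas genes of glycolysis and mitophagy are usually ascribed more to HIF-1α.

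EPAS1 (chr2:46293667-46386697, hg38) had normalized counts of 12035, 12256 and 13507 in WT and 42730, 41672 and 41593 in the HIF-2α line. All 3 libraries of the HIF-2α line were above all 3 WT libraries, 41999 ± 635 against 12599 ± 794 (SD, n = 3), a log2 change of 1.75 ± 0.06 (SE; adjusted p = 4.38e-28, edgeR quasi-likelihood test with Benjamini-Hochberg adjustment). Reads from the transgene and from the endogenous gene were counted together. ARNT, the partner subunit, was at 3691, 3658 and 3839 in WT and 3897, 3787 and 3873 in the HIF-2α line, with overlapping groups, a log2 difference of 0.06 and an edgeR adjusted p of 0.507. Per length, EPAS1 was at 19.6 ± 1.14 RPKM in WT and 63.5 ± 0.372 RPKM in the HIF-2α line (SD, n = 3), and ARNT at 6.57 ± 0.139 and 6.59 ± 0.0718 RPKM. The ratio of EPAS1 to ARNT on the RPKM scale was thus 2.99 ± 0.116 in WT and 9.64 ± 0.126 in the HIF-2α line. The excess of α subunit RNA over partner RNA, present already in WT, was larger in the transgenic line. It applies to RNA only: by blot of tagged clones the study reported much more HIF-1β than HIF-2α protein. The length used was that of all annotated exons, which transgene RNA need not contain, so the ratio does not count molecules.

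A gene was called higher or lower when its mean normalized count was at least 0.5, its fold change at least 2 and its adjusted p at most 0.01. Of 28684 genes tested, 1566 (5.46%) were higher and 610 (2.13%) lower in the HIF-2α line, and the median log2 difference over all genes tested was 0.07. The 2 sets had different shapes. Higher genes had a median change of 2.02 on the log2 scale, with 795 of them at or over 4-fold and 283 at or over 16-fold, while lower genes had a median size of 1.58, with 200 and 25. Genes called higher had a median WT level of 32.0 normalized counts and 137 in the HIF-2α line. Genes called lower had a median of 356 in WT and 115 in the HIF-2α line. The calls were made on these same values, and a fall can be called only from a measurable WT level. The contrast in starting level is therefore set in part by the rule. At or under 3 counts in every WT library were 241 of the 1566 higher genes, and at or under 3 counts in every HIF-2α library were 32 of the 610 lower ones. The 2 groups of libraries did not overlap for 1552 of the higher and 607 of the lower genes, and over all 28684 genes tested they were apart for 6192 in the higher and 6184 in the lower direction. Protein-coding genes were called most, 1205 of 15795 higher (7.63%) and 480 lower (3.04%), against 279 (4.13%) and 98 (1.45%) of 6757 lncRNA genes.

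**Figure D1:**
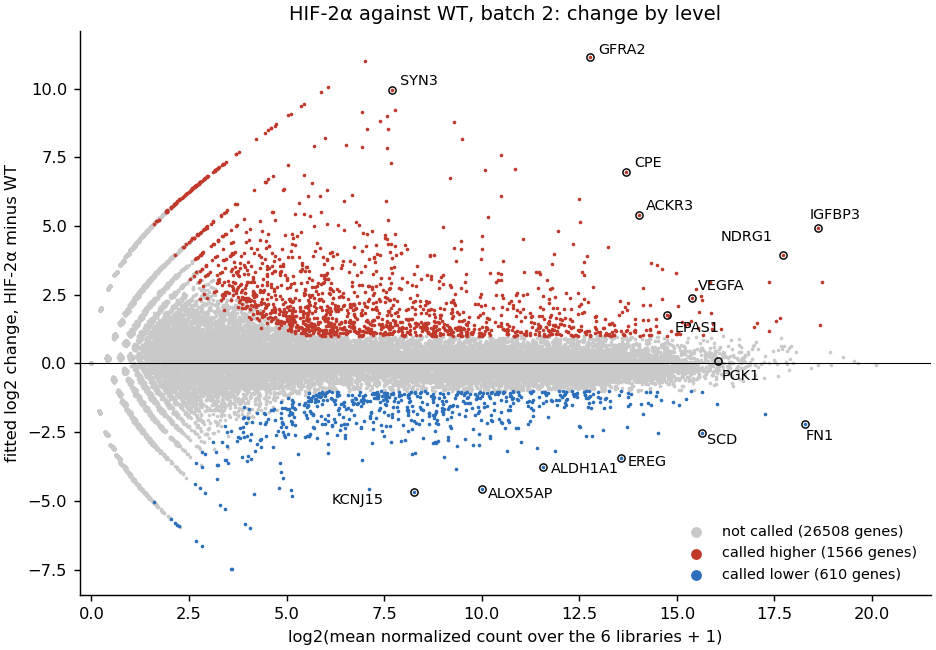
Each point is 1 of the 28684 genes tested, with its log2 mean normalized count over the 6 libraries on the x axis and its log2 change (HIF-2α line minus WT, batch 2) on the y axis; coloured points are the 1566 genes called higher and the 610 called lower. The higher genes reach further from 0 than the lower genes and include many with low mean counts.

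The genes with the largest rises were nearly or wholly silent in WT cells. They were ranked by log2 change among called genes with a mean of at least 50 over the 6 libraries. A gene absent from WT can reach that mean through the HIF-2α libraries alone, and the ranking favours it. The low WT level is therefore set in part by the rule. GFRA2, the coreceptor for neurturin, was at 0, 10.4 and 7 in WT and at 14584, 13872 and 13699 in the HIF-2α line. Every library of the HIF-2α line was far above every WT library, with a log2 change of 11.16 ± 0.15 (SE; adjusted p = 4.27e-42, edgeR). LHX5, a homeobox factor of the developing forebrain, had normalized counts of 0, 0 and 2 in WT and 442, 420 and 439 in the HIF-2α line. KISS1R, the kisspeptin receptor, was at 0, 0.801 and 1 against 432, 442 and 254. PTH1R, the receptor for parathyroid hormone, was at 0, 0 and 1 against 232, 215 and 273. For these 3 genes the WT libraries held between 1 and 2 reads in all, so the ratio of summed counts has a wide interval that covers counting error only: 712 for LHX5 (95% exact interval 197 to 5887), 622 for KISS1R (172 to 5142) and 785 for PTH1R (140 to 31061).

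SYN3, a synapsin, was at 0, 0.801 and 0 in WT and 430, 403 and 413 in the HIF-2α line, a ratio of 1364 (95% exact interval 244 to 53911). TIMP3, an inhibitor of metalloproteinases that lies inside SYN3 on the opposite strand, was at 0, 0.801 and 1 against 172, 200 and 173. The counting did not use strand, so reads of the overlapping stretches of SYN3 and TIMP3 cannot be assigned to either with certainty. NKD2, which binds Dishevelled and restrains Wnt signalling, was at 1.94, 0 and 0 against 372, 336 and 288, and MXRA5, a matrix-remodelling protein, at 0.969, 0 and 2 against 353, 395 and 397. CASP14, a caspase of keratinocyte differentiation, was at 0, 0 and 2 against 310, 176 and 311. RTN4RL1, a Nogo receptor relative, and SH2D1B, an adaptor of lymphocyte SLAM receptors, had no read in any WT library and were at 128, 119 and 144 and at 112, 114 and 123 in the HIF-2α line. Against a floor of 3 counts per WT library, RTN4RL1 was at least 47.4-fold higher and SH2D1B at least 42.2-fold higher. None of these genes had overlapping groups, a condition that genes named for the largest changes had to meet. SYN3, LHX5, CASP14, SH2D1B and NKD2 stayed near 0 in the line with extra HIF-1α, at means of 0.644, 0, 0.316, 1.28 and 2.25, whereas MXRA5 reached 151, KISS1R 99.4 and GFRA2 295 there, with PTH1R at 21.8, RTN4RL1 at 7.69 and TIMP3 at 5.77. Each of these genes was higher in the HIF-2α line than in the HIF-1α line, and the smallest of these differences was 1.35 on the log2 scale, for MXRA5 (adjusted p = 5.03e-12, edgeR). The comparison with the HIF-1α line uses the same HIF-2α libraries from whose values these genes were chosen. It is therefore not a separate measurement of their rise.

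Further genes with very large rises were chosen for mention after their values were seen. CPE, carboxypeptidase E of peptide hormone processing, was at 184, 223 and 235 in WT and 27260, 28482 and 23688 in the HIF-2α line, a log2 change of 6.96 ± 0.10. ACKR3, a scavenging receptor for CXCL12, was at 829, 771 and 739 against 33909, 32214 and 31021, a change of 5.39 ± 0.08. Both were abundant in all 3 HIF-2α libraries and far lower in all 3 WT libraries. CYTIP, which binds cytohesins in leukocytes, rose by 7.04, SLAMF7, a lymphocyte receptor, by 7.07, PRODH, which starts proline breakdown, by 7.60, IGFBP5, an IGF binding protein, by 8.18, ITIH5 by 5.98, FIBCD1 by 5.15 and F3 (tissue factor) by 3.45 on the log2 scale, and for each of these the 3 HIF-2α libraries lay above the 3 WT libraries.

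The largest falls are given for called genes with no overlap between the groups and a mean of at least 50 normalized counts. That mean fixes a well-measured WT level for a gene that falls far. ALOX5AP, needed for leukotriene synthesis, was at 1964, 1981 and 2003 in WT and 73.1, 47.7 and 126 in the HIF-2α line, with no overlap and a log2 change of -4.58 ± 0.19 (adjusted p = 1.84e-24, edgeR). Among inward rectifier potassium channels, KCNJ15 was at 619, 577 and 570 against 24.7, 22.7 and 20.8 (log2 -4.67 ± 0.20) and KCNJ16 at 1165, 1114 and 1370 against 76.0, 97.6 and 80.7 (log2 -3.83 ± 0.14). ALDH1A1, a retinaldehyde dehydrogenase, was at 4906, 5153 and 6974 against 368, 393 and 473, a change of -3.77 ± 0.11. The 3 HIF-2α libraries were below the 3 WT libraries for each of these genes, as the rule for naming them required.

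EREG and AREG, neighbouring genes on chromosome 4 that encode the EGF receptor ligands epiregulin and amphiregulin, fell together. EREG was at 23751, 24333 and 19138 in WT and 1764, 1794 and 2594 in the HIF-2α line (log2 -3.44 ± 0.10, adjusted p = 1.78e-30, edgeR), and AREG at 957, 1060 and 835 against 62.2, 82.9 and 127 (log2 -3.39 ± 0.19). AOAH, which inactivates bacterial lipopolysaccharide, fell by 4.57 on the log2 scale, LUM, the proteoglycan lumican, by 3.52, KYNU, kynureninase, by 3.29 and GBP2, an interferon-inducible guanylate-binding protein, by 3.27. VCAM1, an endothelial-type adhesion molecule, was at 6623, 7293 and 6557 against 662, 787 and 783, a change of -3.18 ± 0.08, and was chosen for mention after its values were seen. In the HIF-1α line ALDH1A1 had a mean of 7996, KCNJ16 of 1440 and VCAM1 of 8190, and all 3 were lower in the HIF-2α line than there, by 4.27, 4.07 and 3.45 on the log2 scale (adjusted p = 8.37e-32, 2.62e-26 and 8.53e-34, edgeR). These 3 do not stand for all the falls. Of the 10 genes named for the largest falls, 5 were also called against WT in the HIF-1α line. The comparison with the HIF-1α line uses the same HIF-2α libraries from which the falls were chosen. For LUM the difference from the HIF-1α line, -1.16, did not pass (adjusted p = 0.0359, edgeR).

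**Figure D2:**
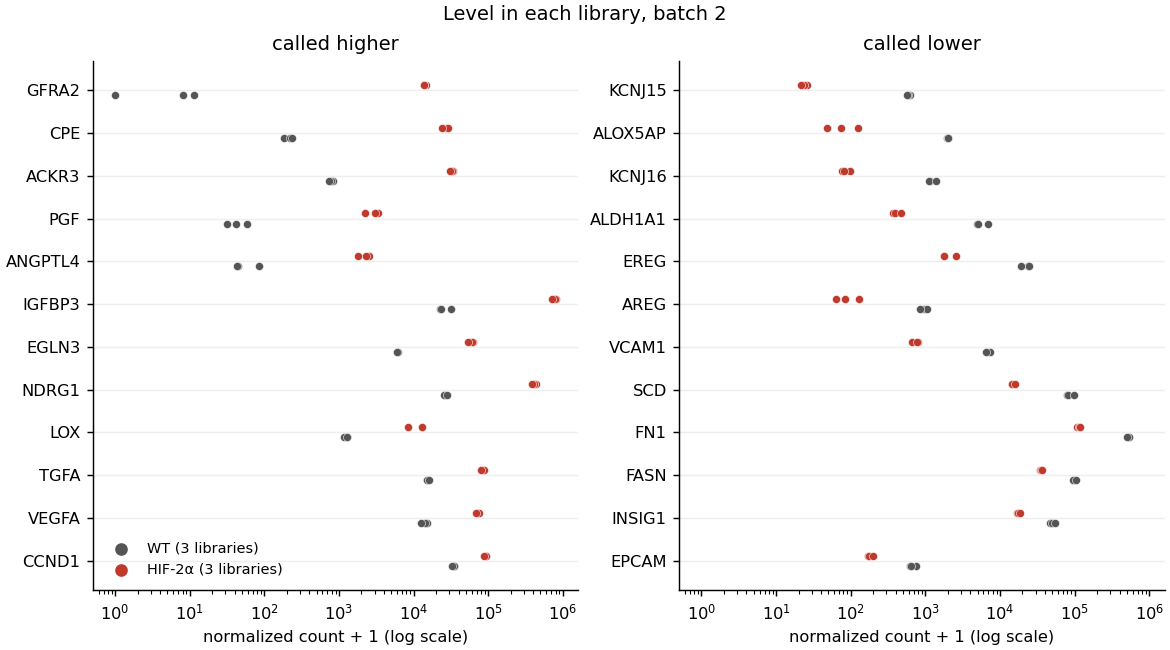
Normalized counts per library (log axis) of 24 genes named in the text, with the 3 WT libraries and the 3 HIF-2α libraries of batch 2 as separate points. For the called genes shown, the 3 points of the HIF-2α line lie on 1 side of the 3 WT points.

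The genes that moved also changed what the libraries consisted of. IGFBP3, which binds insulin-like growth factors, was at 22767, 23119 and 31557 in WT and 813318, 791274 and 706620 in the HIF-2α line, a log2 change of 4.92 ± 0.08, and its share of all counted reads was 0.0293% in WT and 0.850% in the HIF-2α line. NDRG1, a classic hypoxia-induced gene, went from 0.0302% to 0.450% of reads. In the other direction FN1, fibronectin, was at 534245, 541487 and 509132 against 107195, 115919 and 118784, a log2 change of -2.20 ± 0.05, and its share of reads was 0.600% in WT and 0.126% in the HIF-2α line. The 10 most abundant genes took 6.57 to 6.69% of reads in WT and 7.60 to 7.83% in the HIF-2α line.

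Among the HIF system itself, 3 of 12 tested subunits, hydroxylases and partners were higher and 0 lower, with a median log2 difference of 0.21. Apart from EPAS1 these were EGLN3 and HIF1A. EGLN3, a HIF prolyl hydroxylase, was at 6010, 6095 and 6050 in WT and 62596, 60011 and 53700 in the HIF-2α line, far apart and with a log2 change of 3.30 ± 0.08 (adjusted p = 3.34e-33, edgeR). On the RPKM scale EGLN3 went from 9.34 to 88.0, while EGLN1, the main HIF prolyl hydroxylase in most cells, was at 2.51 and 1.95 and VHL at 4.71 and 3.68. HIF1A was at 263, 303 and 312 against 836, 851 and 1082, a change of 1.67 ± 0.08 (adjusted p = 5.07e-21, edgeR). The HIF1A gene at chr14:61695513-61748259 is overlapped by antisense genes HIF1A-AS1 and HIF1A-AS3, so a share of its reads may belong to them. Within 1000 kb of it 7 other genes were expressed, of which 0 were called higher and 1, PRKCH, lower, and their median difference was 0.00. The nearest of them on either side, AL355916.1 and SNAPC1, rose by 0.68 and 0.66 on the log2 scale, under the 2-fold limit. In batch 1 their differences were 0.47 and 1.49. SIX4, further away, fell by 0.88 in batch 2. In batch 1 HIF1A had means of 238 in WT and 900 in the HIF-2α line, against 206 in the R27E line and 188 in the HIF-2αDM line.

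Angiogenic and vascular factors were mostly raised or without a call: 8 of 18 tested were higher and 0 lower, with a median log2 difference of 1.12. VEGFA, the main endothelial growth factor, was at 15149, 14047 and 12452 in WT and 71851, 75998 and 67937 in the HIF-2α line, a log2 change of 2.39 ± 0.06 (adjusted p = 1.74e-32, edgeR). PGF, placental growth factor, was at 31.0, 40.1 and 58 against 3361, 3009 and 2218 (log2 6.08 ± 0.15), and ANGPTL4, an inhibitor of lipoprotein lipase, at 43.6, 41.7 and 83 against 2521, 2325 and 1800 (log2 5.34 ± 0.17). The groups were separate for all 3, and PGF and ANGPTL4 rose from far lower levels than VEGFA. APLN, the apelin ligand, rose by 3.26, EDN1, endothelin-1, by 2.75 and ADM, adrenomedullin, by 2.27 on the log2 scale. PGF was 3.51 higher on the log2 scale than in the HIF-1α line (adjusted p = 3.43e-26, edgeR), while for APLN that difference was 0.10 (adjusted p = 0.269), with means of 5170 and 4886.

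Of 21 growth factor ligands, receptors and cell cycle genes, 10 were higher and 2 lower (median log2 difference 1.41, or 0.74 with genes near 0 set to their bound), the 2 lower ones being EREG and AREG. TGFA, another EGF receptor ligand, was at 15102, 15123 and 15940 in WT and 85821, 88048 and 79067 in the HIF-2α line, a change of 2.47 ± 0.06 (adjusted p = 3.88e-32, edgeR), so that ligands of the same receptor moved in opposite directions. CCND1, cyclin D1, was at 34548, 34275 and 32604 against 93408, 93519 and 87680 (log2 1.45 ± 0.05), and the HIF-1α line had a mean of 35301. CXCR4, the CXCL12 receptor, was much lower and more scattered, at 11.6, 41.7 and 31 against 217, 270 and 122 (log2 2.84 ± 0.36). CDKN1A, the cyclin-dependent kinase inhibitor p21, was at 7808, 7890 and 9232 against 43460, 40138 and 41435 (log2 2.34 ± 0.07), and IGFBP1 rose by 2.38. MYC was at 11892, 9423 and 10850 against 7846, 6755 and 9741, overlapping groups with a difference of -0.39 (adjusted p = 0.00147, edgeR) that was under 2-fold. None of 20 proliferation genes tested was called, with a median of -0.14. Of 11 p53 target genes, 3 were higher (CDKN1A, GDF15 and RRM2B, a ribonucleotide reductase subunit) and 0 lower, with a median of 0.52, and GDF15 missed the 2-fold limit without WT replicate 1 (log2 0.998).

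Glucose uptake, glycolysis and lactate genes were touched in part: 6 of 24 were higher and 0 lower (median 0.41). The glucose transporters SLC2A1 and SLC2A3 rose, SLC2A1 from 99966, 95918 and 98766 to 295491, 280158 and 264990 (log2 1.53 ± 0.05) and SLC2A3 by 1.60, as did the enolase ENO2 by 1.77 and the aldolase ALDOA by 1.35. LDHA, lactate dehydrogenase A, had separate groups and a difference of 0.92, under the 2-fold limit. PGK1, phosphoglycerate kinase, was at 64819, 66248 and 68041 in WT and 74033, 67156 and 68257 in the HIF-2α line, overlapping and with a difference of 0.09 (adjusted p = 0.128, edgeR), against a mean of 178406 in the HIF-1α line. The HIF-2α line was lower than the HIF-1α line for PGK1 by 1.34 on the log2 scale (adjusted p = 6.34e-27, edgeR).

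Mitophagy and respiratory adaptation genes had 1 of 9 higher, BNIP3L (NIX, 1.53 on the log2 scale), 0 lower and a median of -0.13. Its relative BNIP3 was at 7594, 7901 and 7762 in WT and 6151, 5713 and 6076 in the HIF-2α line, a difference of -0.36 that was not called though the groups were separate. In the HIF-1α line BNIP3 had a mean of 45076, and the HIF-2α line was 2.90 lower on the log2 scale (adjusted p = 1.52e-36, edgeR). Carbonic anhydrases differed among themselves. CA12, at the cell surface, was at 17436, 17440 and 18091 in WT and 90919, 90097 and 75647 in the HIF-2α line (log2 2.29 ± 0.06), while cytosolic CA2 fell by 2.03. CA9, at the cell surface like CA12, had no read in WT and only 9.87, 5.68 and 6.92 normalized counts in the HIF-2α line, at least 2.72-fold higher, whereas the HIF-1α line had a mean of 2047. NT5E, which makes adenosine, rose by 1.18. Together 3 of 9 acid-base, purine and ion handling genes were higher and 1 lower, with a median of 0.07, that of all genes.

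Of 16 lipid storage and fatty acid genes, 4 were higher and 3 lower (median 0.14, or 0.03 with genes near 0 at their bound). Those that rose included PLIN2, the coat protein of lipid droplets, from 7370, 7161 and 8064 to 17247, 15938 and 17152 (log2 1.17 ± 0.06), HILPDA, which inhibits droplet lipolysis, by 1.35, and LPCAT1, of phospholipid remodelling, by 1.62. CD36, a fatty acid transporter, was also called but at 1.94, 0 and 1 against 7.90, 7.95 and 20.8 it stayed close to the floor, and it lost its call without HIF-2α replicate 3, WT replicate 2 or WT replicate 3. Those that fell were enzymes of fatty acid synthesis. SCD, stearoyl-CoA desaturase, was at 78265, 82216 and 99261 in WT and 14614, 14317 and 15706 in the HIF-2α line (log2 -2.53 ± 0.07, adjusted p = 2.03e-31, edgeR), FASN, fatty acid synthase, at 96837, 93908 and 106026 against 33877, 35624 and 36293 (log2 -1.47 ± 0.05), and ACACA, acetyl-CoA carboxylase, fell by 1.25. No HIF-2α library reached the lowest WT library for any of these enzymes.

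SREBF1, the transcription factor that drives fatty acid synthesis, was looked at after these values were seen and was at 14796, 14240 and 15812 in WT and 2928, 2593 and 2823 in the HIF-2α line, a change of -2.41 ± 0.07. Sterol genes were lower in part as well: 4 of 14 fell (INSIG1 by 1.52, DHCR7 by 1.51, HMGCS1 by 1.47 and LSS by 1.25 on the log2 scale) and 1 rose, HSD3B7, of bile acid synthesis, by 3.62, with a list median of -0.79, or -0.67 with genes near 0 at their bound. INSIG1, which retains SREBP factors in the endoplasmic reticulum, was at 47342, 50466 and 53908 against 16858, 17316 and 18295. Its mean in the HIF-1α line was 17616, and the 2 transgenic lines differed by 0.01 (adjusted p = 0.961, edgeR), whereas SCD had a mean of 60136 there and was lower in the HIF-2α line by 2.00 on the log2 scale.

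**Figure D3:**
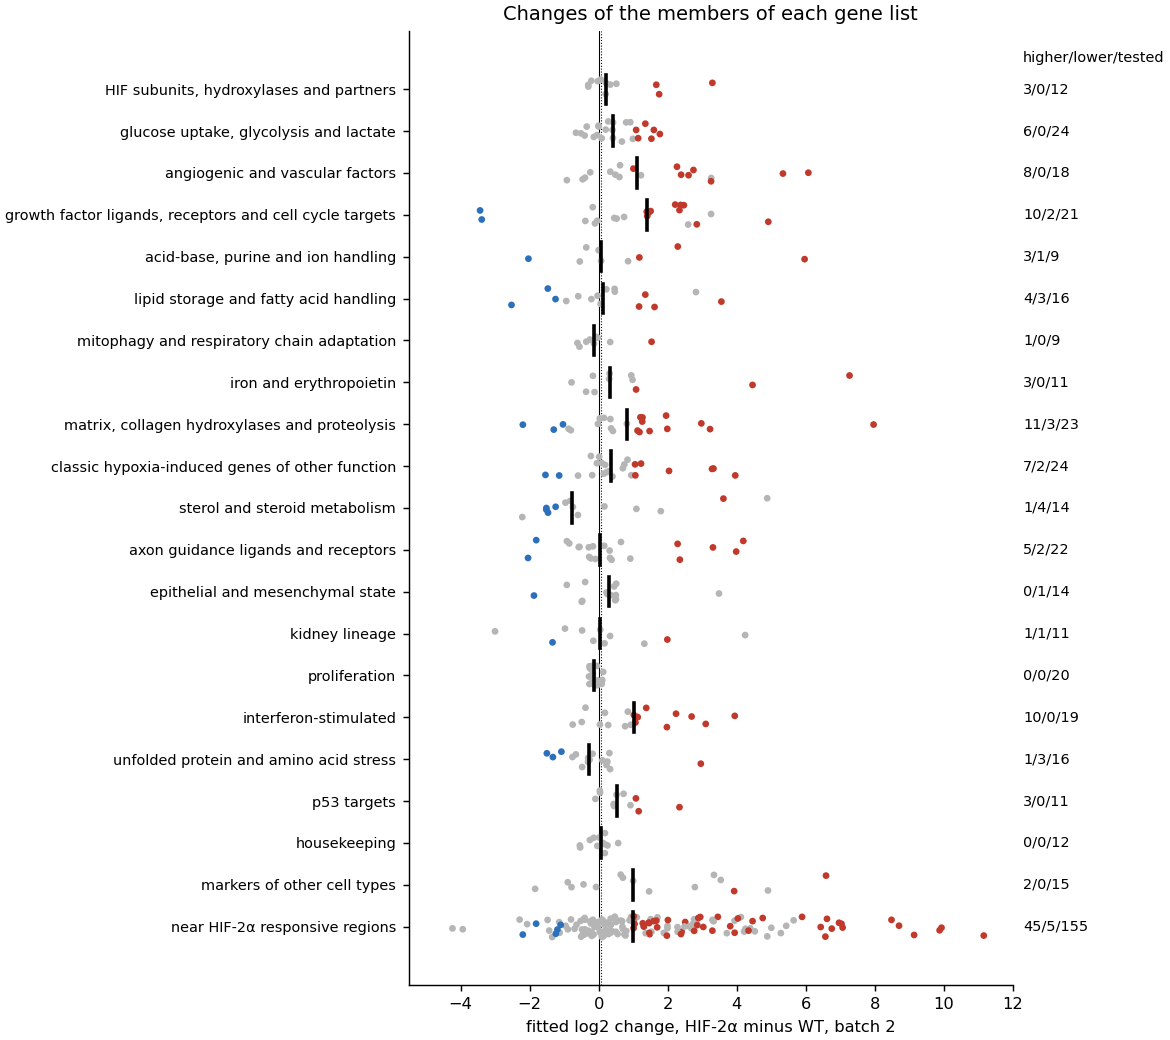
Log2 change (HIF-2α line minus WT, batch 2) of every tested member of each gene list, 1 row per list, with genes called higher in red, lower in blue and others in grey, the list median as a black bar, the median of all genes tested as a dotted line and the numbers higher, lower and tested at the right. Growth factors (median 1.41), angiogenic factors (1.12) and interferon-stimulated genes (1.02) have the medians furthest above the line and sterol genes (-0.79) the median furthest below it, and fitted changes of genes near 0 counts depend on the prior count.

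Matrix genes changed in both directions, with 11 of 23 higher and 3 lower (median 0.82). LOX, which crosslinks collagen, was at 1268, 1164 and 1265 in WT and 12763, 13019 and 8453 in the HIF-2α line (log2 3.23 ± 0.11), and PLAT, a plasminogen activator, rose by 1.99. The lower members were FN1 and the basement membrane collagens COL4A1 (log2 -1.30) and COL4A2 (log2 -1.03), neighbours that share a promoter region on chromosome 13. Classic hypoxia genes of other function gave 7 of 24 higher and 2 lower (median 0.35). NDRG1 was at 26064, 25677 and 27919 against 436479, 407373 and 380270 (log2 3.96 ± 0.08), STC1, stanniocalcin, rose by 3.33, PPP1R3C, a glycogen-targeting subunit, by 3.28 and ZNF395 by 2.04, while the transcription factors KLF9 and BHLHE41 fell by 1.54 and 1.14.

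For axon guidance, 5 of 22 were higher and 2 lower, with a median of 0.04, below that of all genes. The receptors PLXNA2 (log2 3.99) and PLXNA4 (4.19, at 0, 0 and 5 in WT and 35.5, 34.1 and 20.8 in the HIF-2α line) and the transmembrane semaphorins SEMA5B (3.31) and SEMA6A (2.35) rose, and the secreted semaphorin SEMA3A and the ephrin EFNA1 fell by 2.05 and 1.81. Of 11 iron and erythropoietin genes, 3 were higher and 0 lower (median 0.32). EPO, the erythropoietin hormone, was at 0, 4.81 and 0 against 38.5, 37.5 and 47.3, low but separate (log2 4.46, adjusted p = 1.79e-05, edgeR), CP, ceruloplasmin, rose by 1.09, and CYBRD1, a duodenal iron reductase with no read in WT, was at least 6.83-fold higher at 26.7, 14.8 and 15.0.

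Other lists held few calls by number, but they were short, and 5.46% of all genes were higher and 2.13% lower. The shares lower were 18.8% for unfolded protein and amino acid stress, 9.09% for kidney lineage and 7.14% for epithelial and mesenchymal genes. The shares higher were 13.3% for markers of other cell types, 9.09% for kidney lineage and 6.25% for unfolded protein and amino acid stress. Of 14 epithelial and mesenchymal genes 0 were higher and 1 lower, EPCAM, an epithelial adhesion molecule, at 630, 755 and 636 in WT and 170, 176 and 201 in the HIF-2α line (log2 -1.87 ± 0.15), and the median was 0.30. Of 11 kidney lineage genes tested, MME, neprilysin of the brush border, was higher (log2 1.99) and GGT1, a brush border transpeptidase, lower (log2 -1.34), with a median of 0.05. For unfolded protein and amino acid stress, 1 of 16 was higher and 3 lower (median -0.28): SLC7A11, the cystine transporter, PSAT1, of serine synthesis, and CHAC1, which degrades glutathione, fell by 1.50, 1.33 and 1.08, and PHGDH was higher only at low counts, 34.6, 25.0 and 26.5 against 3.88, 4.81 and 2. Of 15 tested markers of other cell types 2 were higher, KRT5 at 55.3, 39.7 and 46.1 against 4.85, 4.01 and 0, and HBB, globin, at 16.8, 6.81 and 11.5 against 0 in all WT libraries. Of 12 housekeeping genes 0 were called and the median was 0.07, that of all genes.

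Interferon-stimulated genes were the list with the largest share higher, 10 of 19 with 0 lower and a median of 1.02, and they were also the list most dependent on a library. OAS2, an antiviral oligoadenylate synthetase, was at 30.1, 16.8 and 36 in WT and 327, 278 and 638 in the HIF-2α line (log2 3.94 ± 0.27), and MX2, an antiviral GTPase, at 44.6, 38.5 and 40 against 284, 257 and 506 (log2 3.10 ± 0.25). IFI6 was at 1047, 875 and 849 against 5476, 5190 and 7048 (log2 2.69 ± 0.10). OAS1, another oligoadenylate synthetase, was at 165, 107 and 157 against 589, 434 and 969 (log2 2.24 ± 0.22). All 10 called genes were highest in HIF-2α replicate 3, though groups were separate for each. Without that replicate 6 of the 10 were still called and the list median was 0.83, and IFIT1, IFI44L, ISG15 and IRF7 were no longer called. In the HIF-1α line of the same batch, OAS2 had a mean of 283, MX2 of 242, OAS1 of 383 and IFI6 of 2384. Of these, IFI6 was called higher in the HIF-2α line than there (by 1.33 on the log2 scale, adjusted p = 1.13e-15, edgeR), and for OAS2, MX2 and OAS1 the differences were 0.57, 0.55 and 0.81 and under the 2-fold limit. Both comparisons use the same HIF-2α libraries. GBP2 and VCAM1, which interferon also induces in many cells, fell.

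Batch 1 gave other values for the same 10 genes. IFI6 was the 1 member of the list called higher in the HIF-2α line than in WT there, and the list medians were 0.28 against WT, -0.93 against the R27E line and -0.75 against the HIF-2αDM line. The means of all 10 were higher in the R27E line than in WT and higher in the HIF-2αDM line than in WT, and the R27E line was above the HIF-2α line for 9 of the 10 and the HIF-2αDM line for 8. OAS2, for example, had batch 1 means of 12.4 in WT, 27.8 in the HIF-2α line, 137 in the R27E line and 82.7 in the HIF-2αDM line. These lines carry the same kind of transgene and resistance gene, and the part of either in the batch 2 rise was not tested.

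**Figure D4:**
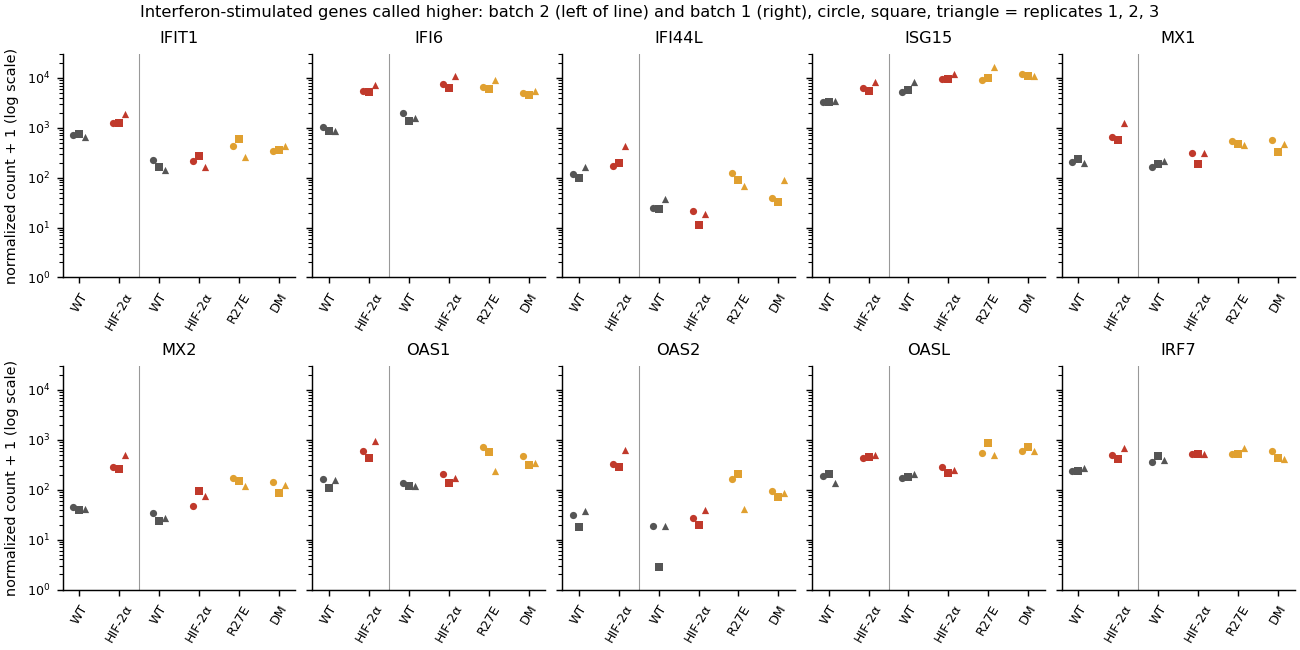
Normalized counts per library (log axis) of the 10 interferon-stimulated genes called higher in batch 2, with batch 2 (WT and HIF-2α lines) left of the vertical line and batch 1 (WT, HIF-2α, R27E and HIF-2αDM lines) right of it, and circles, squares and triangles for replicates 1, 2 and 3. In batch 2 the triangle of the HIF-2α line is the highest of its 3 points in every panel, and in batch 1 the mutant transgene lines are above WT in mean for all 10 genes.

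The published binding data offer a separate view of where extra HIF-2α acts. By Cut&Run in lines of the same kind, the study listed 107 regions of 400 bases where binding rose when HIF-2α but not HIF-1α was raised. The list was chosen by binding and not by RNA. The windows below come from hg38, each centred on a core motif in capitals (ACGTG) inside such a region. They are shown for some of the genes described here and for others with large changes near a region. Only regions that hold the motif could be shown. GFRA2, with the largest rise, had a region within its gene that held no ACGTG. Windows near F3 and SLAMF7 are left out. Each is read 5′ to 3′ on the strand given.
SYN3 intron, chr22:33035511-33035575, plus strand: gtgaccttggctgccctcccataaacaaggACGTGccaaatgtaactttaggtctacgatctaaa
SH2D1B, 4778 bases upstream of the start, chr1:162416870-162416934, minus strand: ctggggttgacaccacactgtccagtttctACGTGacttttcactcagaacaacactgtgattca
PTH1R, 15127 bases upstream, chr3:46862544-46862608, plus strand: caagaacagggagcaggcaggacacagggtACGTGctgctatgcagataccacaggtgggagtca
CYTIP intron, chr2:157469421-157469485, plus strand: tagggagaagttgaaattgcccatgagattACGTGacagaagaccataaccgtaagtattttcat
CPE, 889 bases upstream, chr4:165360275-165360339, plus strand: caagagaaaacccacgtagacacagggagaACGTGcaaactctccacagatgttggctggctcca
GRIN2A intron, chr16:10093881-10093945, minus strand: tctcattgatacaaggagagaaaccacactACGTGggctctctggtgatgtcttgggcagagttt
EPO, just beyond the 3′ end of the gene, chr7:100723790-100723854, plus strand: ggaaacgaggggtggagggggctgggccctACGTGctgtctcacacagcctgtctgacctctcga
EGLN3, within the annotated gene span, chr14:34013419-34013483, plus strand: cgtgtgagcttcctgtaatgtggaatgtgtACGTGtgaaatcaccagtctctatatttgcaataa
SLC8A1 intron, chr2:40433134-40433198, minus strand: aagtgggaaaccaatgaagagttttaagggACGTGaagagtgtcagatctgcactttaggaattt
INHBA, outside the gene, chr7:41656430-41656494, minus strand: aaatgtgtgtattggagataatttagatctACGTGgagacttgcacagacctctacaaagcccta

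Near these regions the RNA response was denser. Of 155 tested genes within 50 kb of a HIF-2α responsive region, 45 were higher (29.0%) and 5 lower (3.23%), beside 5.46% and 2.13% of all genes, and their median difference was 1.00, or 0.47 with genes near 0 at their bound. The 45 higher genes lay near 38 regions, and some shared a region. In the HIF-1α line against WT, 17 of the 155 were higher and 3 lower, beside 1121 and 139 of all 28684 genes, so a denser rise was not confined to the HIF-2α line. Near the 1031 regions listed as HIF-1α responsive, 182 of 2954 tested genes were higher (6.16%) and 77 lower (2.61%), with a median of 0.07. Among the genes whose windows are shown, GRIN2A, an NMDA receptor subunit, was at 6.79, 5.61 and 6 in WT and 318, 411 and 370 in the HIF-2α line (log2 5.89 ± 0.32), and SLC8A1, a sodium-calcium exchanger, at 294, 297 and 306 against 2203, 2395 and 2658 (log2 3.03 ± 0.10). INHBA, the inhibin and activin βA subunit, fell, from 9842, 9593 and 8361 to 3528, 3503 and 4596 (log2 -1.24 ± 0.09), so a window of the same kind lay near a lower gene. Altogether 43 regions were near a called gene, and 38 of the 43 held the core motif, beside 96 (89.7%) of all 107 regions. The motif was thus no more frequent in regions near a called gene.

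The core motif ACGTG, searched on both strands, was present in 96 of the 107 HIF-2α responsive regions (89.7%), against 18.7% and 20.6% of windows of the same length shifted by 10 kb to either side. Of the HIF-1α responsive regions 50.8% held it. The alternative core GCGTG was in 15.9% of the HIF-2α and 51.0% of the HIF-1α responsive regions, which also differed in base composition, with median GC contents of 43.0% and 56.8%. In RefSeq promoter windows of hg38 that run from 250 bases before to 50 after the start, matched for 13527 genes, ACGTG was in 19.8% of those of higher genes, 18.8% of those of lower genes and 25.2% of all. A match is a description of letters and not a measured site.

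Batch 1 measured the same comparison in other libraries, which were normalized separately. By the methods, the batches also differed in RNA extraction, library kit and read length. A difference between batches in the response cannot be told apart from these changes of protocol. There 884 genes (3.79%) were higher in the HIF-2α line than in WT and 455 (1.95%) lower, of 23339 tested. EPAS1 had means of 14233 in WT and 44216 in the HIF-2α line, and of 54930 in the R27E and 47461 in the HIF-2αDM line, so the mutant transgenes were expressed at least as highly as the active one. Of the batch 2 higher genes, 1515 were tested in batch 1, 1444 (95.3%) had the same sign there, which 44.0% of all genes had, and 747 (49.3%) were called higher, making up 84.5% of the batch 1 list. Of the batch 2 lower genes, 607 were tested, 603 (99.3%) had the same sign, as against 55.2% of all genes, and 319 (52.6%) were called lower, 70.1% of the batch 1 list. These counts are from the fit without a replicate block, although replicate numbers paired the batch 1 libraries. With that block 1070 genes (4.58%) were higher and 622 (2.67%) lower in batch 1. Of the batch 2 genes, 860 (56.8%) were then called higher and 371 (61.1%) lower.

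Against the mutant transgene lines the calls were fewer but pointed the same way. Compared with R27E, 2.1% of genes were higher and 1.54% lower in the HIF-2α line, and 434 (28.6%) of the batch 2 higher genes and 231 (38.1%) of the lower ones were called in the same direction. Compared with HIF-2αDM, 2.49% were higher and 1.49% lower, and 497 (32.8%) and 242 (39.9%) of the batch 2 genes were called in the same direction. With the replicate block they were 548 (36.2%) and 293 (48.3%) against R27E and 622 (41.1%) and 305 (50.2%) against HIF-2αDM. The 3 batch 1 comparisons, with WT and with each mutant line, share the batch 1 HIF-2α libraries. Without the block, 366 (24.2%) of the higher and 187 (30.8%) of the lower genes were called as in batch 2 in all 3 comparisons. Beside these stand 1.65% and 0.951% of all genes tested in batch 1. The 10 genes named for the largest rises and the 10 for the largest falls were all among the genes called in all 3 comparisons. Called in the opposite direction were 5 batch 2 higher genes against R27E (OAS1, GDF15, IFI44L, PIK3AP1 and ID4) and 5 against HIF-2αDM (GDF15, PIK3AP1, RAB3IL1, LGALS9 and SGSH), and 0 lower genes. Under the replicate block, the opposite calls came to 10 genes against R27E (with OAS2, OASL, EPSTI1, CCN3 and GREB1 added) and 13 against HIF-2αDM (with OAS1, OASL, IFI44L, RSAD2, CMPK2, CCN3, ETNK2 and SPRY4 added), again with 0 lower genes.

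GDF15, a stress-induced cytokine, had batch 1 means of 358 in WT, 504 in the HIF-2α line, 1563 in the R27E line and 1095 in the HIF-2αDM line, while in batch 2 it was at 149, 178 and 261 in WT and 404, 393 and 501 in the HIF-2α line. CDKN1A had means of 10251, 44037, 23733 and 19102 in the same order, so that its level in the mutant transgene lines lay between that of WT and that of the HIF-2α line. PLIN2, at batch 1 means of 3918 in WT and 4590 in the HIF-2α line, had a difference of 0.22 (adjusted p = 0.76, edgeR), FASN of -0.73 (adjusted p = 0.174), ACACA of -0.73, HILPDA of 0.92 and CP of 0.42, and none of these 5 was called in batch 1. With the replicate number as a block, CXCR4, ALDOA, MX2 and CHAC1 gained a batch 1 call and KLF9 lost it.

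**Figure D5:**
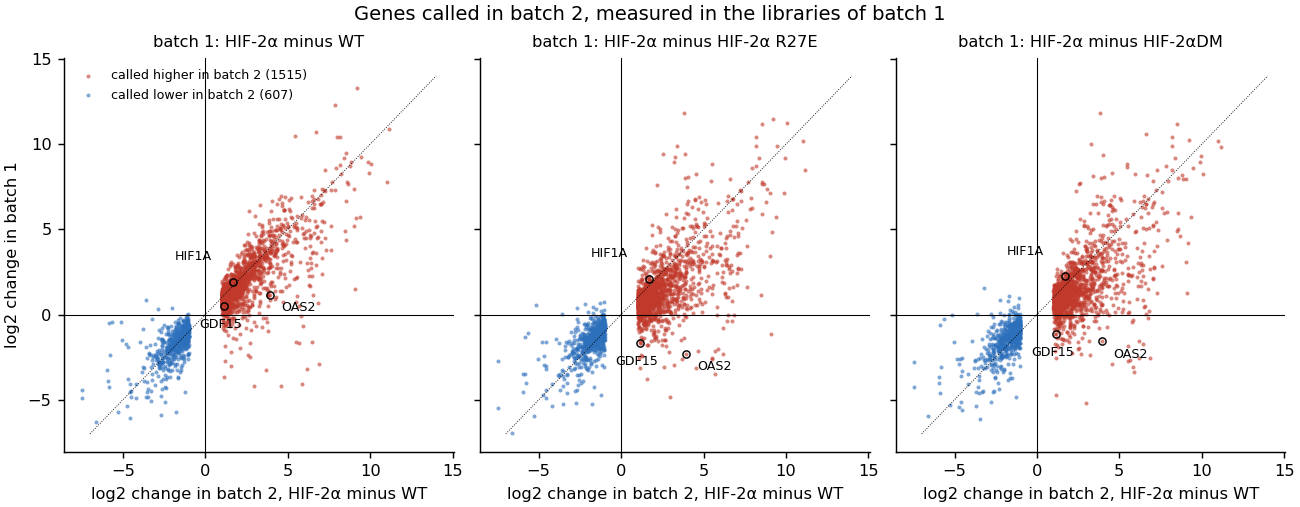
Log2 change in batch 2 (HIF-2α line minus WT, x axis) against the log2 change in batch 1 (y axis) of the HIF-2α line minus WT, minus the R27E line and minus the HIF-2αDM line, in 3 panels, for the 1515 higher and 607 lower batch 2 genes tested in batch 1. In each panel most points lie in the quadrants where both changes have the same sign.

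When the difference between the batches was itself tested, no gene was called: 0% of 26303 genes were called higher and 0% lower in batch 2 (edgeR interaction term), although 2856 had an unadjusted p under 0.05. With the replicate number as a block within batch, 129 genes had a more positive and 67 a more negative response in batch 2. PPFIA4, a liprin of cell adhesion, was at 126, 123 and 71 in batch 2 WT and 474, 572 and 499 in the HIF-2α line. It was called higher there (log2 2.27), and its batch 1 difference was 0.895. The study described PPFIA4 as induced by HIF-1α and not sensitive to raised HIF-2α, which differs from the batch 2 call. Under the replicate block the response was more negative in batch 2 for SREBF1 (by -1.39 on the log2 scale), EREG (-1.24), AREG (-1.17) and SCD (-1.0). The response was more positive for PRKCH (3.24, less of a fall), OAS2 (2.54), IFI44L (1.67), OAS1 (1.59), MX2 (1.53), PPFIA4 (1.29) and ITIH5 (1.10). The falls of EREG, AREG, SCD and SREBF1 were called in both batches, whereas the rises of OAS1 and OAS2 were called in batch 2 and not against batch 1 WT.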

How the data were processed

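RNA-seq of 786-O lines was analysed. The authors deposited raw counts per gene for each library, made with HTSeq 0.11.1 from reads aligned to hg38 with STAR 2.7 (the submitters' processing notes also name SAMtools 1.9, deepTools 2.4.1, FastQC and DESeq2). Counting did not use strand, and 60609 genes were listed per library. Totals ran from 78087880 to 109642159 reads in the 6 libraries, and a floor of 3 counts stood for a count of 0. Intervals and floors cover counting error only. No fold changes of the authors were used.

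Counts were fitted in edgeR 4.0.16 (R 4.3.3; TMM, quasi-likelihood F test, Benjamini-Hochberg) over the 15 libraries of batch 2, which share an estimate of spread, and separately over batch 1. Genes averaging 0.5 normalized counts or more were tested, and calls needed a 2-fold change with an adjusted p no higher than 0.01. The fits were tested on simulated data. DESeq2 1.42.0, RLE factors, other filters, the 6 libraries alone, a replicate block and leaving out each library were tried. The libraries of a line are labelled as replicates, and p-values measure only the spread between them.

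Named genes were EPAS1, HIF1A and ARNT, the 10 largest called changes in each direction with a mean of at least 50 and no overlap, up to 4 called members of each list in each direction, and a set of known HIF targets, not all of which are reported here. ACKR3, CPE, F3, SLAMF7, CYTIP, GRIN2A, PRODH, IGFBP5, ITIH5, FIBCD1, SLC8A1, INHBA, VCAM1, SREBF1, PRKCH, PIK3AP1, ID4, RAB3IL1, LGALS9, SGSH, OASL, EPSTI1, CCN3, GREB1, RSAD2, CMPK2, ETNK2, SPRY4, IFIT1, IFI44L, ISG15 and IRF7 were chosen after their values were seen. The members and lists were chosen with earlier results of these data known. Replicate numbers paired the batch 1 libraries by the correlation of same-numbered deviations (0.158 to 0.742) and not those of batch 2 (0.00246 to 0.0552). Sequences were read from hg38, gene positions from GENCODE and promoters from RefSeq. The samples of the other lines were not analysed here beyond the shared fit.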

Additional observations from a re-analysis of the deposited data

How the results depend on the processing

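The batch 2 call counts, 1566 higher and 610 lower, were 1566 and 605 with DESeq2, 1575 and 610 with RLE factors, 1570 and 649 without the filter, 1431 and 595 with a mean of at least 10, 1623 and 643 with the 6 libraries alone, and 1404 to 1486 and 566 to 617 when each library was left out. The batch 2 numbers do not pair the libraries, and with the replicate block the counts were 1611 and 630. Batch 1 counts were 668 to 791 and 328 to 425 against WT, 385 to 559 and 257 to 399 against R27E, and 447 to 539 and 264 to 303 against HIF-2αDM when libraries were left out. The difference between batches gave 0 calls, 4 higher with RLE factors, and 129 higher and 67 lower with the replicate block; the cause was not tested. Of 1438 results for 120 named genes under these alternatives, 1428 kept their call and 10, in 6 genes, lost it, with none reversed: IFIT1, ISG15 and IRF7 without HIF-2α replicate 3, IFI44L without that replicate, without WT replicate 2 and with DESeq2 (adjusted p = 0.0136), GDF15 without WT replicate 1 (log2 0.998), and CD36 without HIF-2α replicate 3, WT replicate 2 or WT replicate 3. Genes with few counts in WT have folds limited by depth.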
